A study of Homo sapiens with 12 samples.

Results

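The 10 transcripts described here are noncoding small nucleolar RNA (snoRNA) host genes, SNHG1, SNHG5, SNHG6, SNHG7, SNHG8, SNHG12, SNHG15, SNHG16, GAS5 and ZFAS1. They were taken by name from the 57879 genes with a deposited value, and the rows of the snoRNAs themselves were not included. Earlier results of these data were known when the members were chosen. All 10 had a value in each of the 8 libraries and all 10 passed the filter on low values. RNA was sequenced from A549, an established human lung adenocarcinoma line of epithelial origin, after lentiviral delivery and selection of stable lines. The 4 groups were cells with an empty expression vector (vector, 3 libraries), cells overexpressing TIF1γ, the product of TRIM33 (TIF1γ, 2 libraries), cells with a control short hairpin (sh-NC, 1 library) and cells with a hairpin against TAF15 (sh-TAF15, 2 libraries). The labels list 12 samples, and the 4 without a file here were not analysed. The labels call the replicates biological without naming separate infections or clones, so the p-values measure only the spread between these libraries.

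snoRNAs guide the chemical modification of ribosomal RNA. Box C/D snoRNAs (SNORD) direct ribose methylation and box H/ACA snoRNAs (SNORA) direct pseudouridylation. Most human snoRNAs are cut from introns of host genes, and in a noncoding host the spliced exons are left over as a cytoplasmic RNA with little or no coding capacity. Many hosts start with a short pyrimidine run, the 5′ terminal oligopyrimidine (TOP) start that they share with ribosomal protein mRNAs, and several of the spliced RNAs are known targets of nonsense-mediated decay (NMD), which needs translation. The level of a host RNA therefore depends on its transcription and on its decay, and the deposited values do not separate these. Values in these bulk samples also cannot tell fewer expressing cells from less RNA per cell.

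The GENCODE 29 annotation placed 7 snoRNA genes inside SNHG1, 5 inside SNHG12, 4 inside SNHG7, 3 each inside SNHG16 and ZFAS1, and 1 each inside SNHG5, SNHG6, SNHG8 and SNHG15. By these guests SNHG1, SNHG5, SNHG6, SNHG16 and ZFAS1 are box C/D hosts, as GAS5 is also known to be. SNHG7, SNHG8 and SNHG15 hold H/ACA snoRNAs, and SNHG12 holds both kinds. Annotated host exons overlapped 7 of the 7 snoRNA genes in SNHG1, 4 of 5 in SNHG12 and 4 of 4 in SNHG7. They also overlapped 2 of 3 in SNHG16, 1 of 3 in ZFAS1 and the 1 in each of SNHG5, SNHG6, SNHG8 and SNHG15. A host value may therefore include reads from snoRNA sequence, and their part in the host values was not tested. Median GC content over the annotated transcripts ran from 42% in SNHG6 to 59.9% in SNHG7, with SNHG15 at 54.4%, SNHG12 at 50.7% and ZFAS1 at 50.5%.

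RefSeq start regions (GRCh38.p14) were matched for 8 of the 10 hosts, and SNHG6 and SNHG15 were not matched. The 5 starts shown belong to the members whose levels differ most between the lines or that serve as contrast, and each runs from 35 bases before the start to 20 bases from it. Capitals mark the unbroken C/T run that covers the annotated start, except in SNHG16, where the run begins at base 4 counted from the start.
SNHG5: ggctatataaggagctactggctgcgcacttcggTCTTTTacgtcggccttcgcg
SNHG7: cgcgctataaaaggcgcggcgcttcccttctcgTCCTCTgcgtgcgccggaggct
SNHG16: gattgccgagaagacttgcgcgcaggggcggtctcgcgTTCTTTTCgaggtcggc
ZFAS1: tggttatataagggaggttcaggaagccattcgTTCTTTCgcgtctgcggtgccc
SNHG12: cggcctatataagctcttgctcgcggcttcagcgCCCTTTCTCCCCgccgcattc
These windows lie at chr6:85678714-85678768 (minus strand) for SNHG5, chr9:136728165-136728219 (minus strand) for SNHG7, chr17:76557729-76557783 (plus strand) for SNHG16, chr20:49278607-49278661 (plus strand) for ZFAS1 and chr1:28581854-28581908 (minus strand) for SNHG12. The run is CCCTTTCTCCCC in SNHG12, TTCTTTTC in SNHG16 and TTCTTTC in ZFAS1, so it is present in hosts that were higher and in hosts that were lower in the sh lines described further on. A run of at least 6 pyrimidines covering the start was found in 5 of the 8 matched hosts (62.5%), in 49 of 78 ribosomal protein promoters (62.8%) and in 7.41% of all 35116 RefSeq promoters. A C at the start followed by 3 pyrimidines was found in 4 of 8 hosts, in 48 of 78 ribosomal protein promoters (61.5%) and in 5.45% of all promoters. The letters TATAA lay 16 to 45 bases upstream in 5 of 8 hosts (62.5%), in 7 of 78 ribosomal protein promoters (8.97%) and in 4.10% of all promoters, searched on the transcribed strand. The RefSeq start of GAS5 carried no such run, whereas the commonest start among its GENCODE 29 transcripts (6 of 29) did, with 6 pyrimidines in capitals.
GAS5: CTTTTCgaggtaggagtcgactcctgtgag
A match describes these letters and does not show that a factor binds or that the start is used in these cells.

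Values are given as FPKM, a fragment count corrected for the length of the transcript and the size of the library. Each was divided by 1 scaling factor per library (0.899 to 1.12). Levels of different genes can thus be set side by side per length. SNHG5, the host of SNORD50, was the most abundant member, with a median of 774.9 scaled FPKM over the 8 libraries, above 98.6% of the 13907 genes tested. GAS5, a growth arrest-associated host of box C/D snoRNAs, followed at a median of 260.5, ZFAS1, the SNORD12 host next to ZNFX1, at 228.7, and SNHG6, the SNORD87 host, at 228.0. The lowest SNHG5 value (502) stood above the highest value of any of those 3 (354.3 for GAS5), whereas their own ranges overlapped and gave no order among them. SNHG8 (median 101.5), SNHG7 (96.2), SNHG16 (93.2) and SNHG1 (74.0) formed the next set, again with overlapping ranges. SNHG15 had a median of 42.3 and SNHG12, the lowest at 21.3, still lay above 70.9% of the genes tested. The highest SNHG12 value (27.9) was below the lowest SNHG15 value (32.4), so that these neighbours in the order were separate in all 8 libraries.

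**Figure D1:**
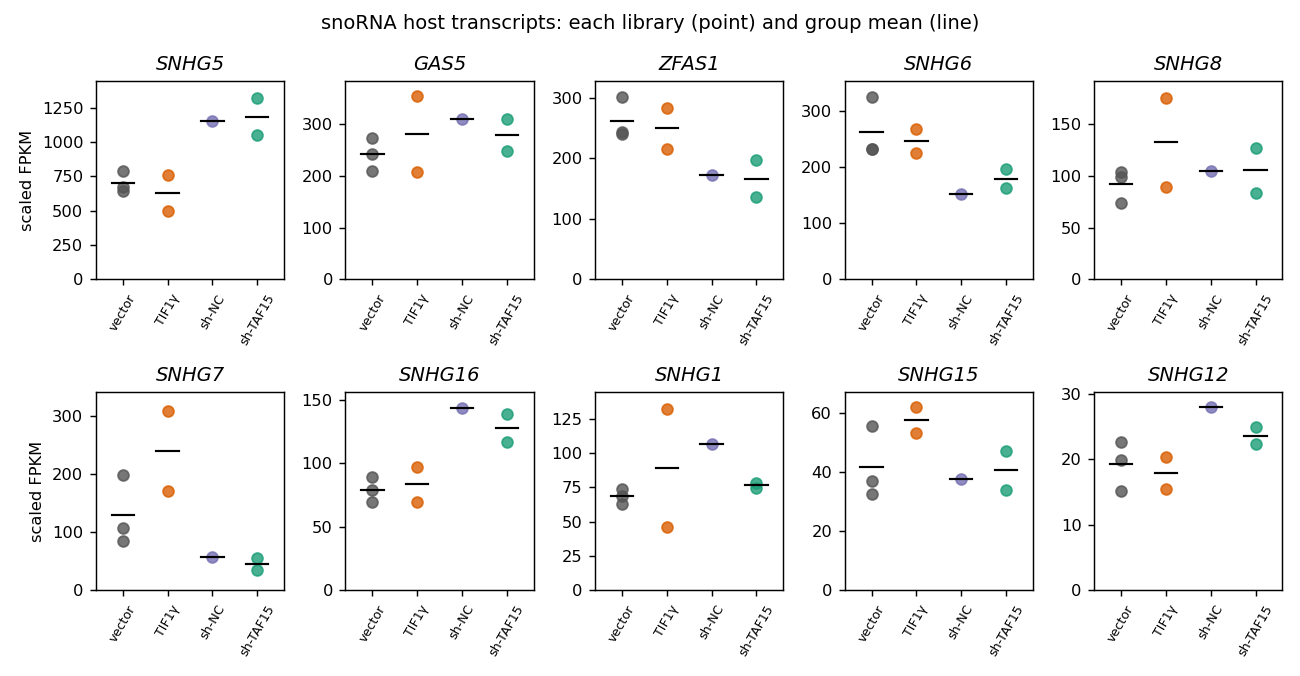
Scaled FPKM (linear axis from 0) of each of the 10 host transcripts by group, with 1 point per library and a line at the group mean. SNHG5 and SNHG16 sit higher and SNHG7, SNHG6 and ZFAS1 lower in the 3 sh libraries than in the 5 vector and TIF1γ libraries, while vector and TIF1γ points overlap for all 10.

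Facts of the whole series bear on every comparison below. TRIM33, the targeted gene of the TIF1γ lines, stood at 2.38, 2.19 and 1.41 scaled FPKM in the vector libraries and at 7.64 and 6.62 in the TIF1γ libraries (limma, log2 difference 1.46 ± 0.272 SE, Benjamini-Hochberg adjusted p = 0.13). The gene identifier of TAF15 in the tables used matched no row of the values, and those tables pair no older identifier with the name, so its knockdown was not checked here. Of 9 tested A549 marker genes, 8 were called lower in the sh lines than in the vector and TIF1γ lines, with AKR1C2 at a log2 difference of -4.66 and KRT19 at -5.08. KRT8 and KRT18 were listed at 0 in both TIF1γ libraries. The summed FPKM of 6 fibroblast markers ran from 0.378 to 5.99 (COL1A1 and COL1A2 called higher in the sh lines, DCN at 0 throughout), of 7 leukocyte markers from 27.3 to 87.2 (nearly all CD14 and CD68, both lower in the sh lines, CD3E at 0 throughout) and of 4 endothelial markers from 0.0553 to 0.387. CDKN2A, which A549 has lost, was at 0 in 6 libraries, at 0.0611 in TIF1γ replicate 3 and at 1.895 in sh-TAF15 replicate 3. Depth relative to vector replicate 1, read from the steps of low values, was 0.789 to 1.03, and the absolute depth is not known. Whether any of these differences has a part in the host values was not tested.

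The first comparison asks how host levels differ when TIF1γ, a TRIM family ubiquitin ligase and chromatin reader that acts in TGF-beta signalling, is overexpressed. No host was called: 0 of 10 had an adjusted p under 0.05 in limma, against 0.0216% of all genes tested. SNHG7 alone had an unadjusted p under 0.05, which 19.9% of all genes had. Groups of libraries that did not overlap were found for 0 of 10 hosts and for 36.6% of all genes. The median log2 difference of the members was 0.12, with 6 above and 4 below 0, against 0.02 over all genes. The member median turned to -0.09 with every library brought to one common sum, where the median of all genes was -0.13, and was 0.32 with the trend on GC content and length removed.

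SNHG7, a host of the SNORA17 family, was measured at 84.5, 107.8 and 198.8 scaled FPKM in vector replicates 1, 2 and 3 and at 171.0 and 309.4 in TIF1γ replicates 2 and 3. Vector replicate 3 lay above the lower TIF1γ library, so the groups overlapped. The log2 difference was 0.91 ± 0.378 SE (95% interval 0.0821 to 1.74, adjusted p = 0.228). It was 1.26 without vector replicate 3, 0.48 without TIF1γ replicate 3 and 0.52 once the trend on GC content and length was taken out. Log2 differences rose with transcript GC content over 11720 protein-coding genes in this comparison (Spearman rho 0.797), and SNHG7 is the most GC-rich member. The part of GC content in the SNHG7 value was not tested beyond that fit. DIPK1B, a gene that overlaps SNHG7 on the opposite strand, was at 14.7, 17.2 and 22.1 in the vector libraries and at 29.2 and 30.2 in the TIF1γ libraries (log2 difference 0.71 ± 0.264, adjusted p = 0.21), and its part in the SNHG7 value was not tested.

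SNHG15, the SNORA9 host, stood at 37.0, 55.4 and 32.4 in the vector libraries and at 61.9 and 53.3 in the TIF1γ libraries. One vector library lay between both TIF1γ values, and the log2 difference of 0.49 ± 0.268 did not pass the test (adjusted p = 0.303). SNHG8, the SNORA24 host, was at 74.0, 103.7 and 99.3 against 89.6 and 176.0, with a log2 difference of 0.46 ± 0.309 (adjusted p = 0.391). Only TIF1γ replicate 3 stood above the vector range, and without it the difference was -0.03.

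Among the box C/D hosts, SNHG1, first described as the U22 host gene, was at 63.0, 68.6 and 73.7 in the vector libraries and at 45.9 and 132.1 in the TIF1γ libraries. The vector libraries were close together, and the TIF1γ libraries were the lowest and the highest of all 8. The log2 difference was 0.19 ± 0.352 (adjusted p = 0.768), and it was 0.95 with TIF1γ replicate 3 alone and -0.56 with TIF1γ replicate 2 alone. SNHG5 was at 642.5, 789.7 and 675.8 against 502.0 and 760.1, a log2 difference of -0.18 ± 0.262 (95% interval -0.743 to 0.383, adjusted p = 0.695). GAS5 was at 209.8, 242.8 and 272.5 against 208.1 and 354.3, again with TIF1γ replicate 2 lowest and TIF1γ replicate 3 highest. For SNHG6, SNHG12, SNHG16 and ZFAS1 at least 1 TIF1γ value lay inside the vector range (225.0 and 268.0 for SNHG6, 15.5 and 20.4 for SNHG12, 69.3 and 97.2 for SNHG16, and 216.2 and 284.0 for ZFAS1). Their group means were 262.5 and 246.5 for SNHG6, 19.3 and 17.9 for SNHG12, 79.2 and 83.3 for SNHG16, and 262.0 and 250.1 for ZFAS1, vector first.

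**Figure D2:**
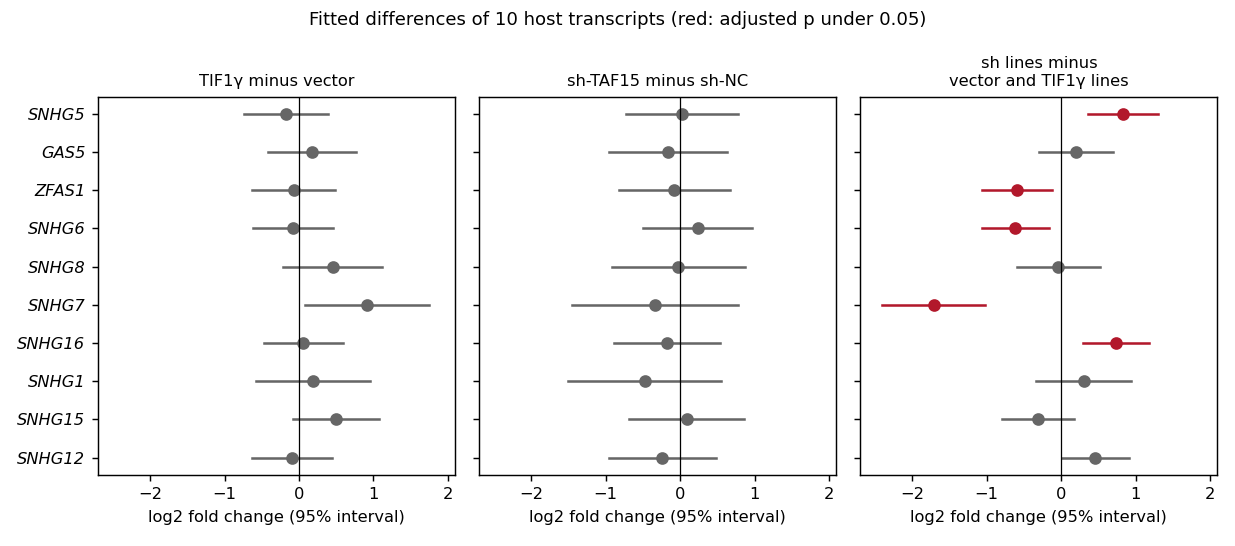
Fitted log2 differences (points) with 95% intervals (lines) for the 10 hosts in 3 comparisons, with red for an adjusted p under 0.05. No host is red for TIF1γ or sh-TAF15. In the sh lines against the vector and TIF1γ lines, 5 of 10 are red, and 41.6% of all genes tested were called.

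The second comparison asks how host levels differ when TAF15, a FET family protein that binds RNA, is knocked down. With 1 sh-NC library its spread was taken to be that of the other groups. None of the 10 hosts was called (0.0575% of all genes were), and 0 of 10 had an unadjusted p under 0.05 in limma, which 5.62% of all genes had. The sh-TAF15 libraries stood on 1 side of the sh-NC library for 6 hosts, 1 higher and 5 lower, whereas 73.1% of all genes did so, which is what a lone control library makes common. The median of the members was -0.12, against -0.003 over all genes.

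SNHG1 was at 106.4 scaled FPKM in sh-NC and at 78.4 and 74.3 in sh-TAF15. Both were lower, by a log2 difference of -0.47 ± 0.473 (95% interval -1.5 to 0.556, adjusted p = 0.958). SNHG7 was at 56.8 against 35.6 and 56.2, SNHG12 at 27.9 against 22.3 and 24.9, SNHG16 at 143.6 against 138.4 and 116.4, and GAS5 at 310.6 against 248.4 and 309.9. These 4 gave log2 differences of -0.34, -0.24, -0.18 and -0.16 in that order, all with standard errors larger than the difference. SNHG6 was the host with both sh-TAF15 values above sh-NC, at 151.4 against 162.2 and 195.7 (log2 difference 0.23 ± 0.337, adjusted p = 0.962). SNHG5 (1157 against 1050 and 1322), ZFAS1 (172.6 against 135.7 and 196.9), SNHG8 (105.0 against 84.0 and 127.2) and SNHG15 (37.5 against 33.9 and 47.1) had the sh-NC value between the sh-TAF15 values. The intervals of all 10 hosts included 0, and they were wide enough to leave changes of either sign undetected at this number of libraries.

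The difference between the TIF1γ and the TAF15 effect was called for 0 of 10 hosts (0.0431% of all genes), and 0 of 10 had an unadjusted p under 0.05 in limma (3.6% of all genes). It ran from -0.31 ± 0.421 in SNHG6 to 1.25 ± 0.633 in SNHG7 (95% interval -0.138 to 2.63), with an adjusted p of 1 for all 10.

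The larger separation among host levels ran between the sh lines and the other lines, control lines included. In sh-NC against vector, which differ in the control construct, 0 of 10 hosts were called, against 11% of all genes. SNHG5, SNHG16, SNHG6 and SNHG7 had an unadjusted p under 0.05 in limma, which 27.9% of all genes had. The single sh-NC value lay outside the vector range for 9 hosts, 6 higher and 3 lower, and for 74.1% of all genes. The log2 differences were 0.86 ± 0.310 for SNHG16 (adjusted p = 0.0931), 0.72 ± 0.331 for SNHG5 (adjusted p = 0.172), -0.77 ± 0.318 for SNHG6 (adjusted p = 0.134) and -1.09 ± 0.478 for SNHG7 (adjusted p = 0.165). SNHG7 was at -0.74 without vector replicate 3, and SNHG6 was at -1.11 once the GC and length trend was removed, which passed the test (adjusted p = 0.0265).

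The sh lines were therefore also compared as a set with the vector and TIF1γ lines (the mean of both sh groups minus the mean of both other groups), a contrast added after the values had been seen. Construct, line and any handling of the lines together cannot be told apart in it. Called were 5 of 10 hosts, 2 higher and 3 lower, where 41.6% of all genes were called, 20.4% higher and 21.1% lower. The same 5 hosts were those whose 3 sh libraries did not overlap the other 5, which 34% of all genes showed, and 6 had an unadjusted p under 0.05 (51.4% of all genes). The share of hosts called was thus near that of all genes, and the direction was mixed, with a member median of 0.08. The hosts' own split was 3 higher and 1 lower without scaling (median 0.24) and with every library brought to one common sum (median 0.34), and 0 higher and 2 lower with the trend on GC content and length removed (median -0.13). Of all genes, 27.6% were called higher and 16.6% lower without scaling, and 26.5% and 14.7% with the common sum. With the trend removed, 13.8% of all genes were higher and 15.2% lower. The split over all genes moved with the scaling: 49.1% of calls were higher as scaled here, 62.5% without scaling and 64.4% with the common sum. The median of all genes was 0.02, 0.15 and 0.22 in that order.

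SNHG7 was at 84.5, 107.8, 198.8, 171.0 and 309.4 scaled FPKM in the vector and TIF1γ libraries and at 56.8, 35.6 and 56.2 in the sh libraries. All 3 sh values lay below all 5 others. The log2 difference was -1.71 ± 0.316 (adjusted p = 0.00171), or 0.305 of the level in the other lines. SNHG7 passed the test in all 14 alternatives (-1.95 to -1.16). It is the most GC-rich member (59.9%), and log2 differences in this contrast fell with GC content (Spearman rho -0.596). With the GC and length trend removed SNHG7 was at -1.25 (adjusted p = 0.0208). Its range over the 8 libraries, 8.69-fold from lowest to highest, was the widest of the 10. The overlapping gene DIPK1B was lower in the sh lines as well, at 14.7 to 30.2 in the 5 vector and TIF1γ libraries and at 2.40, 5.10 and 7.66 in the sh libraries (log2 difference -2.27 ± 0.221, adjusted p = 7.35e-06). Its level was below that of SNHG7 in each library, and its part in the SNHG7 difference was not tested.

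SNHG5 was at 502.0 to 789.7 in the 5 vector and TIF1γ libraries and at 1157, 1050 and 1322 in the sh libraries. Every sh value was above every other value, and the log2 difference was 0.83 ± 0.219 (1.77-fold, adjusted p = 0.00908). SNHG16, the SNORD1 host, was at 69.1 to 97.2 in the 5 and at 143.6, 138.4 and 116.4 in the 3 sh libraries, a log2 difference of 0.74 ± 0.205 (1.67-fold, adjusted p = 0.0115). Log2 differences fell with GC content here (Spearman rho -0.596 over 11720 genes), and genes of 42 to 51% GC, where most hosts lie, had a median of 0.33. After removal of the GC and length trend, SNHG5 was at 0.48 (adjusted p = 0.0724) and SNHG16 at 0.42 (adjusted p = 0.0823), and neither was called. SNHG5 passed the test in 12 and SNHG16 in 11 of the 14 alternatives.

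SNHG6 was at 232.5, 324.0, 231.0, 225.0 and 268.0 in the vector and TIF1γ libraries and at 151.4, 162.2 and 195.7 in the sh libraries. It was lower in all 3, with a log2 difference of -0.62 ± 0.210 (adjusted p = 0.0316). ZFAS1 was at 243.7, 301.1, 241.2, 216.2 and 284.0 against 172.6, 135.7 and 196.9, lower in all 3 as well, with -0.59 ± 0.217 (adjusted p = 0.0414). Both calls sat near the threshold. SNHG6 passed the test in 6 and ZFAS1 in 3 of the 14 alternatives, and without scaling they were at -0.45 (adjusted p = 0.142) and -0.43 (adjusted p = 0.166). Once the trend on GC and length was removed, SNHG6 was at -1.09 (adjusted p = 0.00203) and ZFAS1 at -0.54 (adjusted p = 0.0607).

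The other 5 hosts did not pass the test. SNHG12 was at 15.2 to 22.7 in the vector and TIF1γ libraries and at 27.9, 22.3 and 24.9 in the sh libraries, overlapping at 1 library (log2 difference 0.46 ± 0.208, adjusted p = 0.0892). It passed without scaling (0.62, adjusted p = 0.0305). SNHG15 (-0.31, adjusted p = 0.277), SNHG1 (0.30, adjusted p = 0.428) and GAS5 (0.20, adjusted p = 0.501) overlapped more widely. SNHG1 was at 0.68 without TIF1γ replicate 3, which passed the test (adjusted p = 0.0132), and at -0.10 without TIF1γ replicate 2. GAS5 turned to -0.22 with the GC and length trend removed. SNHG8 ranged over 84.0 to 127.2 in the sh libraries, inside its range of 74.0 to 176.0 in the others.

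Ratios of 2 hosts within a library do not depend on how libraries are scaled, and those below were chosen after the values were seen and are given as a description. SNHG5 made up 38.3%, 37.7% and 35% of the summed FPKM of the 10 hosts in the vector libraries and 31.3% and 31% in the TIF1γ libraries. In sh-NC it made up 51% and in sh-TAF15 52.8% and 53.5%. The ratio of SNHG5 to ZFAS1 was 2.32 to 2.80 in the 5 vector and TIF1γ libraries and 6.71, 7.74 and 6.71 in the sh libraries. These 2 hosts differ in GC content (44.5% and 50.5%). Their log2 differences in the sh lines were 0.83 and -0.59, and 0.48 and -0.54 with the GC and length trend removed. The ratio of SNHG16 to SNHG6, 2 box C/D hosts of similar GC content (45.8% and 42%), was 0.244 to 0.386 in the 5 and 0.948, 0.853 and 0.595 in the sh libraries. The sum of the 10 hosts, in contrast, ran from 1600 to 2450 in the 5 and from 1990 to 2470 in the 3, with no separation. These ratios, taken without removal of the GC and length trend, show unequal change among hosts and not which of each pair changed.

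Genes that share a role with the hosts were set beside them in the same contrast of the sh lines, where 20.4% of all genes were called higher and 21.1% lower. Of 15 other noncoding hosts tested, 1 was called higher and 2 lower: SNHG9 fell by 2.23 and SNHG11 by 1.51 on the log2 scale, and SNHG26, named after its value was seen, rose by 1.47. SNHG9 was at 77.0 to 172.3 in the vector and TIF1γ libraries and at 17.2, 20.9 and 57.8 in the sh libraries. Of 34 protein-coding snoRNA hosts, 16 were called higher and 0 lower (median 0.44), among them NCL (1.28), encoding nucleolin, and NOP58 (1.36), a core box C/D protein. With the GC and length trend removed 12 were higher and 0 lower, where 13.8% of all genes were higher and 15.2% lower. Of 18 snoRNP proteins and assembly factors, 8 were higher, led by NOLC1 (1.22), and 1 was lower, NHP2 (-0.81), an H/ACA protein. With that trend removed 4 were higher and 0 lower, against the same shares of all genes. NOP56, NOP58 and DKC1 belong both to this list and to the coding hosts, so their results count in both.

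Ribosomal protein mRNAs, the other large TOP class, had 5 higher and 23 lower calls of 79 (median -0.31), with RPS21 at -1.19. This balance depended on the scaling: without scaling 6 were higher and 7 lower, and with one common sum 21 and 19. Removal of the GC and length trend left 2 higher and 10 lower, where 13.8% of all genes were higher and 15.2% lower. Of 20 other TOP mRNAs, 4 were higher, led by NPM1 (1.31) and NAP1L1 (0.92), and 1 was lower, EEF1D (-0.66). EEF1B2, EEF2, RACK1 and TPT1 are in this list and also among the coding hosts. Of 18 NMD factors, 7 were higher, led by the release factor gene ETF1 (1.23) and the decapping gene DCP2 (1.19), and 0 were lower. With the GC and length trend removed 3 were higher, where 13.8% of all genes were higher and 15.2% lower. Of 12 mRNAs known to be NMD-sensitive, TRA2A was higher (0.94) and UPP1 (-1.01) and ATF4 (-0.91) were lower, and none passed with that trend removed. Among 13 other abundant noncoding RNAs, H19 (-2.54) and CRNDE (-1.22) were lower, and CYTOR (0.69) and MIR100HG (0.82) were higher.

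**Figure D3:**
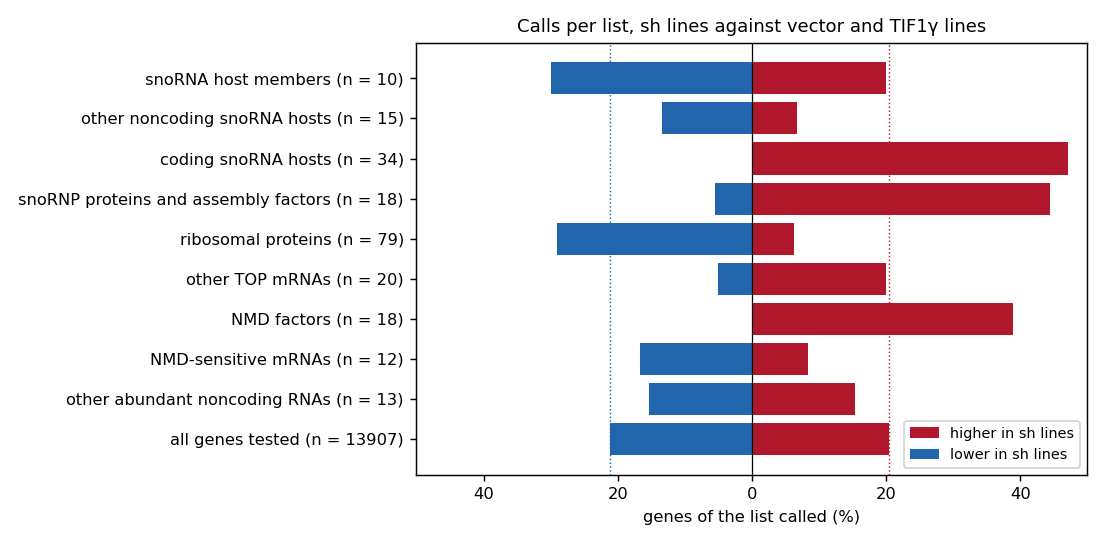
Percent of each gene list called higher (right, red) or lower (left, blue) in the sh lines against the vector and TIF1γ lines, with dotted lines at the shares over all genes tested. The 10 hosts have 2 higher and 3 lower, whereas the 34 coding hosts have 16 higher and 0 lower.

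In TIF1γ against vector, 0 genes of any of these lists were called by limma. The other noncoding hosts had a median of 0.29, with 2 genes higher and 1 lower at an unadjusted p under 0.05, led by SNHG10 (0.85, adjusted p = 0.206) and SNHG11 (0.66, adjusted p = 0.215). The coding hosts had a median of -0.39, with 1 higher and 15 lower at that unadjusted threshold, led by NOP58 (-1.22, adjusted p = 0.2). Over all genes tested, 19.9% passed that threshold, both directions together. Genes of 42 to 51% GC had a median of -0.27 in this contrast. With the GC and length trend removed the medians were 0.21 for the other noncoding and -0.25 for the coding hosts, and with one common sum 0.07 and -0.59. The difference between the lists was not tested. In sh-TAF15 against sh-NC, 0 genes of these lists were called, and 0 coding hosts and 0 other noncoding hosts had an unadjusted p under 0.05, with medians of -0.18 and -0.14.

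Likeness among hosts over the 8 libraries is given as Pearson r of log2 values, which share libraries and scaling and cover only 4 groups. Of 45 pairs, SNHG6 and ZFAS1 were most alike (0.933), followed by SNHG1 and GAS5 (0.884), SNHG5 and SNHG16 (0.873), and SNHG8 and GAS5 (0.869). SNHG6 and SNHG16 were least alike (-0.756), then SNHG16 and ZFAS1 (-0.724). The hosts therefore did not move as 1 set: SNHG5, SNHG12 and SNHG16 lay together, SNHG6, SNHG7 and ZFAS1 lay together, and SNHG1, GAS5 and SNHG8 lay together with their highest values in TIF1γ replicate 3. All 3 sets hold box C/D hosts. The sets were not sharply apart: SNHG16 with GAS5 (0.623) and with SNHG1 (0.608) came near SNHG16 with SNHG12 (0.643), a pair within a set. SNHG15 was placed in no set and was most like SNHG6 (0.555). The mean of the standardised host values was highest in TIF1γ replicate 3 (0.904) and lowest in TIF1γ replicate 2 (-0.517), so the libraries of 1 group were the extremes. The 6 other genes most like this mean were ANKRA2 (0.949), SNHG32 (0.936), itself a host, IRF1-AS1 (0.925), TFB1M (0.921), COX19 (0.918) and CCDC71L (0.908). These 6 were picked for the highest r among the named genes tested, over only 8 libraries. Their r values therefore do not by themselves show shared behaviour with the hosts. SNHG32 was at 73.8 and 112.7 in the TIF1γ libraries and at 70.7 to 94.4 in the others.

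**Figure D4:**
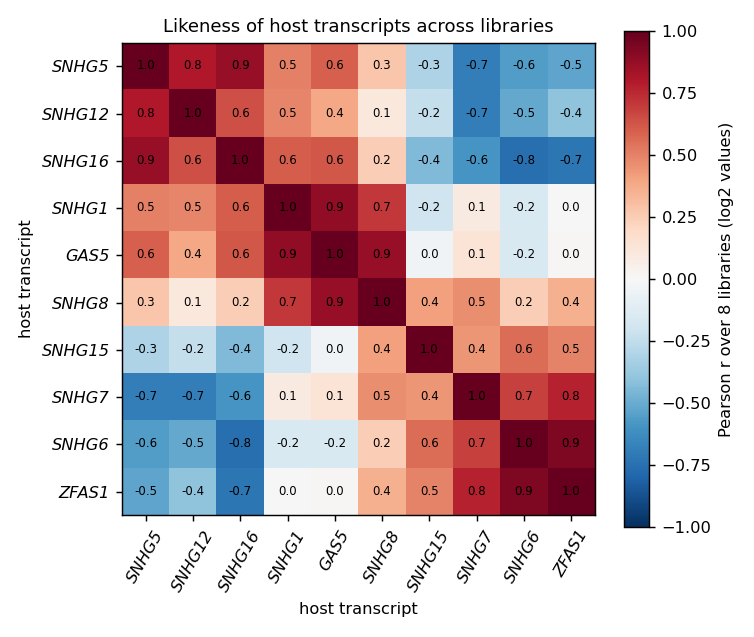
Pearson r of log2(scaled FPKM + 1) over 8 libraries for each pair of hosts, red for positive and blue for negative. SNHG5, SNHG12 and SNHG16 at one end and SNHG7, SNHG6 and ZFAS1 at the other are positive within and negative between.

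Several hosts start beside another gene on the opposite strand or overlap one, and whether the counting used strand is not given in the sources used here. SLC3A2, an amino acid transporter heavy chain that starts within 2 kb of SNHG1, was at 447.2, 482.3 and 461.1 in the vector libraries and at 671.7 and 679.2 in the TIF1γ libraries, where SNHG1 was at 45.9 and 132.1. Both SLC3A2 values were above the vector range and close to each other (log2 difference 0.54 ± 0.229, adjusted p = 0.226), unlike those of SNHG1. ZNFX1, which overlaps ZFAS1, was at 3.98 to 8.77, far below ZFAS1 (135.7 to 301.1). ZBTB37 beside GAS5 was at 0.156 to 0.400, GAS5-AS1 at 0.246 to 1.67, MCMDC2 opposite SNHG6 at 0.0745 to 0.216, and TRNAU1AP opposite SNHG12 at 9.68 to 18.7. TRNAU1AP was at a level like that of SNHG12 itself (15.2 to 27.9), and its part in the SNHG12 values was not tested. AC015802.4, which starts beside SNHG16, was at 0 to 1.70.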

How the data were processed

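Total RNA with poly(A) selection or ribosomal RNA removal was sequenced on an Illumina HiSeq, per the labels' protocols. The deposited values are FPKM per Ensembl gene on a linear scale, and the authors' route from reads to FPKM is not given in the sources used here. The submitters' processing notes name cutadapt 1.9.1, HISAT2 2.0.1, HTSeq 0.6.1 and GRCh37. Gene names (52324 of 57879 identifiers) came from a separate list of gene symbols and, where that had none, from GENCODE 29. Transcript GC content and length came from GENCODE 29 and start regions from RefSeq, both on GRCh38. Positions in the files' own build are therefore not printed. Read totals do not accompany the values, so counting intervals are not given.

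The 19 genes with an exact 0 in one library beside 100 FPKM or more in another were set aside (11 of them would have passed the filter), and the filter kept genes that reached 1 FPKM in 2 or more libraries (13907). Libraries were brought to a common scale by trimmed mean log ratios (30% of ratios and 5% of abundances trimmed) and analysed as log2(scaled FPKM + 1) with limma 3.58.1 in R 4.3.3 (lmFit, eBayes with trend and robust), 4 groups in 1 fit with 4 residual and 9.57 prior degrees of freedom. The pseudocount draws fold changes of low genes toward 0. A call is a Benjamini-Hochberg adjusted p under 0.05 over all genes tested. The fit was tested on simulated data. The members, gene lists and tests were chosen with earlier results of these data known. Besides all members, the text names the targeted genes, the 2 genes of a list with the lowest p in a contrast (1 item is not reported here), the 6 genes most like the members' mean, and genes starting within 2 kb of a member. Other genes named are those behind a count of 5 or fewer, members of the marker lists and genes overlapping a host, chosen after their values were seen. Alternatives changed the pseudocount, filter, scaling, GC and length trend, replicate block, groups in the fit, and each library in turn. Same-numbered libraries of different groups did not deviate together throughout (r from -0.373 to 0.171), so the numbers were not taken to pair them.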

Additional observations from a re-analysis of the deposited data

How the results depend on the processing

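Numbers of genes called across the whole table moved with the settings, and no alternative called a host for TIF1γ, sh-TAF15 or the difference of their effects. For TIF1γ (3 genes called) the count was 5 with a pseudocount of 0.1, 0 without a filter, 7 with only the 2 groups, 0 with the GC and length trend removed, and 1 to 297 leaving out a library (297 without vector replicate 3, 1 without TIF1γ replicate 2). For sh-TAF15 (8) it was 21, 188, 1 and 2 under those 4 settings and 0 to 52 leaving out a library (0 without either sh-TAF15 library, 52 without vector replicate 2). For the difference of effects (6) it was 103 without a filter, 2 with the trend removed and 1 to 18 leaving out a library. With the replicate number as a block, whose pairing the libraries did not bear out, the counts were 44 for TIF1γ, 52 for sh-TAF15, 1000 for sh-NC against vector (1529 without the block) and 30 for the difference. With the replicate block and the trend removed together they were 0, 1, 575 and 1, and 2516 for the sh lines (5782). These causes were not tested.

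Over all 10 hosts, the sign changed in 23 of 150 values for TIF1γ, 11 of 150 for sh-TAF15, 7 of 150 for sh-NC, 13 of 140 for the difference and 11 of 140 for the sh lines, and 0 of these changed values was called. Among differences named above, SNHG1 for TIF1γ turned to -0.0197 with one common sum per library and ran from -0.56 to 0.95 leaving out a library. SNHG5 for TIF1γ turned to 0.13 with the trend removed, to 0.0408 with the block as well, and ran from -0.48 to 0.12 leaving out a library, and SNHG8 from -0.0274 to 0.94. In the sh lines SNHG1 turned to -0.0371 with the trend removed and ran from -0.10 to 0.68 leaving out a library, and GAS5 turned to -0.22 and, with the block as well, to -0.19, and ran from -0.0178 to 0.39. Host calls in the sh lines were lost in 24 of 140 values and gained in 3. With the replicate block SNHG16 (adjusted p = 0.0613), SNHG6 (0.114) and ZFAS1 (0.172) were lost. SNHG6 was lost without vector replicate 1 or 2, TIF1γ replicate 3 or sh-TAF15 replicate 2, and ZFAS1 without any vector library, TIF1γ replicate 3 or sh-TAF15 replicate 2. The alternatives for the sh lines were added after the data were seen, and the fit of 2 groups only does not apply to that contrast or to the difference of effects. Leaving out the lone sh-NC library was not possible for contrasts that need it.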

Other observations

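Among noncoding hosts outside the 10, SNHG29 was the most abundant, at 799.2 to 1231 scaled FPKM over the 8 libraries, a level like that of SNHG5 (502.0 to 1322). Its highest value was in TIF1γ replicate 3 and its lowest in sh-TAF15 replicate 2. SNHG17 ran from 77.1 to 206.2 and SNHG19 from 116.2 to 237.2, both highest in TIF1γ replicate 2, the library in which SNHG5 and SNHG1 were lowest. GC content was 56.8% in SNHG17 and 56.1% in SNHG19, against 44.5% in SNHG5 and in SNHG1. Log2 differences for TIF1γ rose with GC content (Spearman rho 0.797), and TIF1γ replicate 2 had the highest summed FPKM (1356634). The part of either in these values was not tested. SNHG20 was at 21.3 scaled FPKM in sh-TAF15 replicate 2 and at 4.61 to 6.84 in the other 7 libraries, so a single library set its sh-TAF15 mean. These genes were chosen after their values were seen and are given as a description.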
